A study of Mus musculus with 2 samples.

Results

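Germ cells with high RNA for genes of G2 and mitosis were described in 2 single-cell libraries of cultured mouse spermatogonia. A cell was taken as a G2/M cell when its M score, the UMIs of Ccnb1, Ube2c, Cenpf, Plk1, Aurka, Cdc20 and Cenpe over all gene UMIs of the cell, was among the 800 highest of both libraries ranked together, and its S score, the same for Pclaf, Rrm2, Mcm3, Mcm5, Mcm6, Cdc6 and Slbp, was not among the 800 highest. A UMI (unique molecular identifier) marks 1 captured RNA molecule. Of 11271 barcodes, 8694 were ranked after leaving out barcodes with under 2000 genes, over 20% mitochondrial UMIs, or 40 or more UMIs of the fibroblast genes Vim and S100a6. Of these, 667 were G2/M cells, 195 in the Control library and 472 in the FGF9 library, and 7227 in neither of the high sets served as the reference cells. The other 800 cells were 667 with a high S score alone and 133 high in both.

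The cells were THY-1+ germ cells from male C57 LacZ pups of 5 to 8 days post-partum, with cells of 3 mice in each library, kept on STO fibroblast feeders at passages 9-12. The methods give passage 12, and one source label gives a range for the FGF9 library that runs past it. The serum-free growth medium of both cultures held 3 factors, GDNF at 20 ng/ml, soluble GFRA1 at 150 ng/ml and FGF2 at 1 ng/ml. They were then switched for 48 h to medium with 20 ng/ml FGF9 (fibroblast growth factor 9, FGF9 library) or with 0 ng FGF and 0.1% BSA (Control library), and the study describes the control cells as kept without growth factors. An antibody tag for KIT protein was counted in the same cells. There was 1 library of each treatment, so treatment, library and any handling difference cannot be told apart, no test between treatments was possible, and all intervals below are 95% intervals for counting error only.

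In a dividing cell, the kinase CDK1 with its partner cyclin B drives entry into mitosis, the spindle then captures the chromosomes at their kinetochores, and the anaphase-promoting complex (APC/C) destroys cyclin B once all are attached. Many genes of this program are transcribed late in the cycle through promoter elements called the CHR and the CCAAT box, bound by the MuvB complex with B-Myb and FOXM1 and by NF-Y, whereas replication genes are transcribed earlier through E2F sites. Spermatogonia divide by mitosis, both to renew the stem cell pool and to expand progenitors before meiosis.

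The upstream stretches below are shown to let a reader see where these elements lie, and where they do not, before genes that chose or led the G2/M cells. They are RefSeq sequences of build GRCm38.p6, written 5′ to 3′ on the strand of the gene, and end before the RefSeq start or, where a GENCODE exon reaches further, before that exon. Capitals mark matches on either strand to the CHR (TTTGAA or TTCGAA), the CCAAT box (CCAAT) or an E2F site (TTTCCCGC, TTTGGCGC, TTTCGCGC or TTTGCCGC). Cdc20, Cdk1 and Top2a show a CHR and a CCAAT box, Ccnb1 and Ube2c a CCAAT box alone, and Mki67 a CHR alone. Tuba1c and the score gene Cenpe show none in these bases, nor did Fbxo5 in its own stretch. Mcm6, a replication gene of the S score, is given for contrast.
Ccnb1, chr13:100786571-100786670, minus strand: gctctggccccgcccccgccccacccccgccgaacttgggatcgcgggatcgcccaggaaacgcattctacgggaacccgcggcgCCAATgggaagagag
Ube2c, chr2:164769798-164769897, plus strand: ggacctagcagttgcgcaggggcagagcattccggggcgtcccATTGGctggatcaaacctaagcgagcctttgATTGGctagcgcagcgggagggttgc
Cdc20, chr4:118437353-118437452, minus strand: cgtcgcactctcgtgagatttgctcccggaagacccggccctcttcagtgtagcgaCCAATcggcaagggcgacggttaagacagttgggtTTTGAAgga
Cdk1, chr10:69352939-69353038, minus strand: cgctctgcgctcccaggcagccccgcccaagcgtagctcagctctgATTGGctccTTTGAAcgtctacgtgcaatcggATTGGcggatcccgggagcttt
Top2a, chr11:99024190-99024289, minus strand: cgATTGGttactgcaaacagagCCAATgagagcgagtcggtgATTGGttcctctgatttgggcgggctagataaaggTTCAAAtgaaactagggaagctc
Mki67, chr7:135716380-135716479, minus strand: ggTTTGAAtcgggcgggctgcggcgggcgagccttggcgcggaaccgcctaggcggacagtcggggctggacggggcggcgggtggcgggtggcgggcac
Tuba1c, chr15:99029791-99029890, plus strand: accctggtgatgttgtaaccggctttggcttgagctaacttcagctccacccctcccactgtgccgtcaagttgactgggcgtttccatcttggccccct
Cenpe, chr3:135212437-135212536, plus strand: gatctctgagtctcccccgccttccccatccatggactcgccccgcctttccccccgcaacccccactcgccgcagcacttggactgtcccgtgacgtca
Mcm6, chr1:128359706-128359805, minus strand: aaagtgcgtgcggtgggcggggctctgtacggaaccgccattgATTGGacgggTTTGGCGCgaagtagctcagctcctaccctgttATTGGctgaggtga

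Within 250 bases before the start, all 7 M score genes had a CCAAT box and 2 of 7, Cdc20 and Ube2c, had a CHR, which for Ube2c falls in the annotated exon and is not printed. Of 32851 RefSeq promoters, 33.8% held a CCAAT box, 17.1% a CHR and 6.02% both. For genes at 20 CPM or more these shares were 37.1%, 12.1% and 4.79% of 7417 promoters. Among the 127 genes (1.76% of 7224 measured) that were at least 2-fold higher in G2/M cells of both libraries, 100 were matched to 113 promoters. A CCAAT box was in 66.4% of these, a CHR in 31.9% and both in 24.8%. Of the 26 genes (0.36%) at least 2-fold lower, 19 were matched to 24 promoters. None of the 24 held a CHR, and 54.2% held a CCAAT box. An E2F site was in 3 of 7 promoters of S score genes, in 0 of 7 of M score genes and in 1.86% of all promoters, while 6 of 7 S score promoters held a CCAAT box. It was in 3.91% of promoters of genes at 20 CPM or more and in 7.96% of those of the 127 higher genes, so the contrast between the scores did not extend to the longer list. These are matches of letters and were not tested as binding sites.

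G2/M cells made up 4.69% (4.07 to 5.38%) of the 4157 ranked cells of the Control library and 10.4% (9.53 to 11.3%) of the 4537 of the FGF9 library, a ratio of 2.22. For comparison, cells with a high S score alone made up 1.97% and 12.9%, a ratio of 6.54. The ratio for G2/M cells depended on the ranking. With the cut-offs of both scores moved together it was 2.81 at the 400 highest and 1.31 at the 1200 highest, and it was 1.79 after every cell was thinned to 5000 UMIs. When each library was ranked alone the ratio was 1.19, from 7.24% of Control and 8.62% of FGF9 cells. That setting took the 400 highest of each library for each score. This largely sets the shares, so the 1.19 cannot show whether the libraries differ. At most 10% mitochondrial UMIs gave 1.53. Ranking by 122 mitosis genes outside the score gave 2.91, with 2.62% of Control and 7.63% of FGF9 cells.

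**Figure D1:**
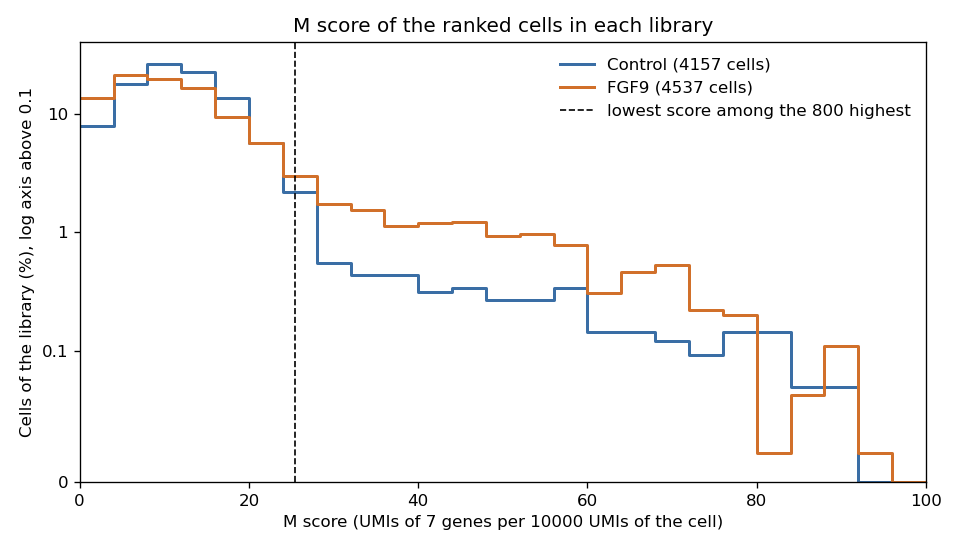
Distribution of the M score (UMIs of the 7 score genes per 10000 UMIs, x axis) in the 4157 Control and 4537 FGF9 cells, as the percent of each library's cells in bins of 4 (y axis, logarithmic above 0.1). The dashed line is the lowest of the 800 highest scores, 25.5. The FGF9 line lies above the Control line from 24 to 60, and neither line has a gap at the threshold.

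The score falls off without a gap. The last cell inside, which was also high in the S score, had 57 score UMIs of 22359 (25.49 per 10000) and the first outside, a cell with a high S score, had 48 of 18838 (25.48 per 10000). The 20 last inside lay between 25.5 and 25.8, and the 20 first outside between 25.2 and 25.5. The highest score of a G2/M cell was 91.1 in Control and 90.9 in FGF9. The G2/M cells are an upper range of a continuous score. The median score was 40.04 in Control and 45.3 in FGF9 G2/M cells, against 11.2 and 8.64 in reference cells. Split by rank into 4 bins, the lowest bin held 68 of the 195 Control cells and 99 of the 472 FGF9 cells.

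G2/M cells carried more RNA than reference cells. The median was 20118 UMIs in the Control library against 14648 in reference cells, a ratio of 1.37, and 18845 against 12180 in the FGF9 library, a ratio of 1.55. The medians of genes were 5201 against 4583 and 5069 against 4086.5. The mitochondrial share had a median of 8.29% against 9.59% in Control and 8.21% against 9.41% in FGF9. The KIT tag had a median of 464 counts against 437 in Control and 322 against 307 in FGF9, so it was close between the sets within each library. Cells with a high S score alone also had more UMIs than reference cells, with medians of 16988.5 in Control and 15515 in FGF9. Their mitochondrial share was also lower, at 8.22% and 8.81%. Cells high in both scores had medians of 21709 and 18377.5 UMIs. No doublet caller was run. With barcodes above 2.5 times their library's median UMI count left out, the UMI ratios were 1.24 and 1.48. The libraries shared 11 barcode sequences, and none of these was a G2/M cell in both libraries.

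The label was checked on its markers and on germ cell and other markers. By the rule, Ccnb1, the mitotic cyclin B1, was at 609 CPM (UMIs per 1000000 UMIs summed over the cells of a set) in Control and 605 in FGF9 G2/M cells, against 86.0 and 78.0 in reference cells. Ube2c, the ubiquitin-conjugating enzyme of the APC/C, was at 514 and 640 against 73.2 and 70.6. These values follow from how the cells were chosen. After thinning to 5000 UMIs, 92.7% of Control and 97.0% of FGF9 G2/M cells held at least 3 of the 7 score genes, against 53.1% and 41.1% of reference cells. Germ cell identity was present: Dazl, a germ cell RNA-binding protein, was at 1954 and 2115 CPM against 1709 and 1736, and Ddx4, a germ cell RNA helicase, at 436 and 388 against 438 and 437. The 8 germ cell markers differed in direction, and none was 2-fold higher or lower in both libraries. Their median log2 ratios of G2/M over reference cells were 0.01 in Control and -0.17 in FGF9. Nanos3 and Uchl1, both of this list, were lower and are described below. Markers of Sertoli, Leydig, macrophage and endothelial cells summed to at most 19.5 CPM for each list in G2/M cells, and none of their genes reached 20 CPM.

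In all, 7224 genes, score genes included, reached 20 CPM in at least 1 of the 4 sums of cells (G2/M or reference, by library). A gene was counted as higher when its log2 ratio of CPM, G2/M over reference, was at least 1 in both libraries with the interval above 0. This gave 127 genes, 1.76% of those measured, of which 118 were outside both scores. Lower by the same rule were 26 genes, 0.36%. As the cells were chosen on co-expressed genes, these counts describe the set and are no test of it. Some genes, such as Tuba1c and Foxm1, reached 20 CPM in G2/M cells alone, and others, such as Relb, in reference cells alone. The filter thus favours calls in both directions, here and in the lists below. Of the 127, 45 were also at least 2-fold higher in cells with a high S score alone, and of the 26 lower genes 0 were higher there. How many of the 26 were also lower in those cells was not counted.

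**Figure D2:**
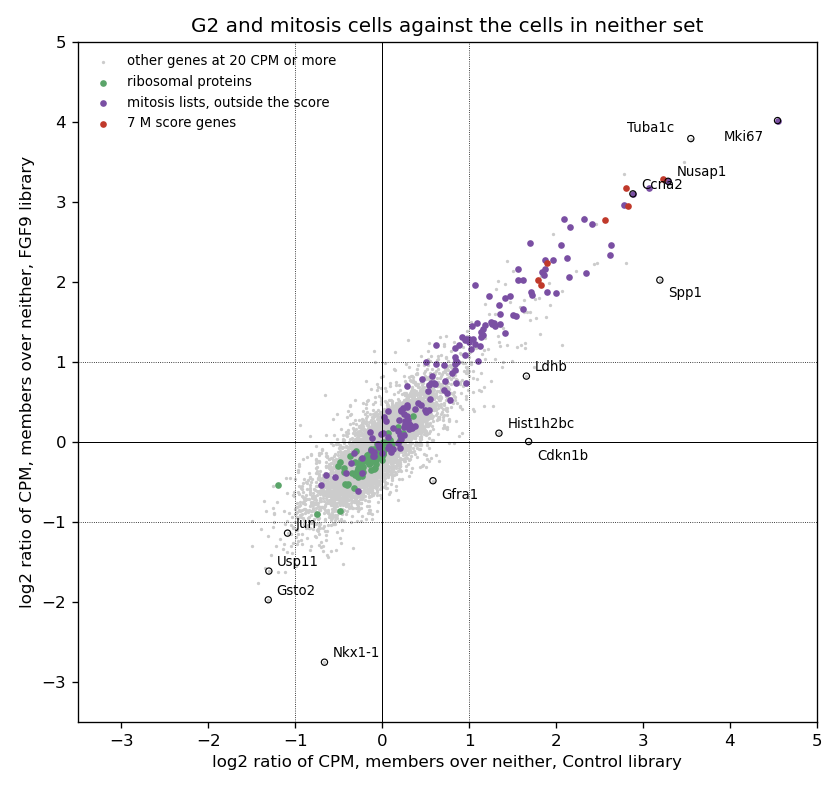
log2 ratio of CPM, G2/M cells over reference cells, in the Control library (x axis) and the FGF9 library (y axis); each point is 1 of the 7224 genes at 20 CPM or more, and dotted lines mark a log2 ratio of 1 in either direction. Most mitosis genes sit along the diagonal at the upper right, ribosomal protein genes just below 0, and Cdkn1b, Hist1h2bc, Ldhb, Spp1 and Gfra1 below the diagonal.

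The widest ratio was that of Mki67 (chr7:135689784-135716361, minus strand, GRCm38), which codes for the Ki-67 protein that coats mitotic chromosomes. It was at 336 CPM against 14.3 in the Control library and 495 against 30.5 in the FGF9 library. The log2 ratios were 4.55 (4.43 to 4.67) and 4.02 (3.94 to 4.11). After thinning to 5000 UMIs, 58.5% of Control G2/M cells and 78.6% of FGF9 G2/M cells had a Mki67 UMI, against 5.61% and 9.77% of reference cells and 3.23% and 19.0% of the fibroblast barcodes left out. Tuba1c, an alpha-tubulin, was at 29.1 against 2.48 CPM in Control and 31.9 against 2.30 in FGF9, with log2 ratios of 3.55 and 3.80. Its level in Control cells with a high S score alone was 2.605 CPM, with UMIs in 4 of 82 cells. In FGF9 cells with a high S score alone it was 3.73 CPM, with UMIs in 34 of 585. Both are low levels from few cells. Top2a, the topoisomerase that untangles chromosomes, was at 739 against 107 CPM and 919 against 117. Unlike Tuba1c it was also high in the cells with a high S score, at 557 and 716 CPM.

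Among the genes of the CDK1 switch, which turn the kinase on or off, 8 of the 16 genes measured (17 listed) were at least 2-fold higher in both libraries and none lower. The median log2 ratio of the list was 1.17 in Control and 1.43 in FGF9, beside -0.02 and -0.04 over all genes measured. Ccna2, the cyclin of S phase and G2, was at 231 against 31.2 CPM in Control and 319 against 37.1 in FGF9. Ccnb2, the second mitotic cyclin B, was at 211 against 34.4 and 238 against 46.7. Cdk1 itself was at 146 against 39.8 and 178 against 36.8. The phosphatase Cdc25b, which activates CDK1, was at 16.1 against 3.88 and 31.3 against 5.67. Cdkn3, a phosphatase that acts on CDKs and is in none of the lists, was at 77.0 against 11.1 and 107 against 10.4.

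Of the factors that transcribe these genes, only Foxm1 was 2-fold higher among the 7 genes of the MuvB, B-Myb and FOXM1 list that were measured, at 28.2 against 12.6 CPM in Control and 29.0 against 10.8 in FGF9. Mybl2, which codes for B-Myb, was at 32.2 against 31.8 and 28.2 against 22.6, and its log2 ratios were 0.02 and 0.32. Lin9, a core subunit of MuvB, had log2 ratios of 0.24 and 0.42. The list medians, 0.08 and 0.28, were far below those of the CDK1 switch.

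Of 19 APC/C genes and regulators, 3 were 2-fold higher in both libraries, and the medians were 0.32 and 0.20. The 3 were regulators or partners rather than core subunits. Fbxo5, which codes for the APC/C inhibitor EMI1, was at 49.1 against 5.84 CPM in Control and 58.3 against 6.46 in FGF9. Pttg1, which codes for securin, the protein that holds separase in check until anaphase, was at 166 against 44.6 and 170 against 46.3. Ube2s, which extends the ubiquitin chains on APC/C substrates, was at 1592 against 559 and 1699 against 566. Espl1, separase itself, had log2 ratios of 0.89 and 1.21, and so passed in the FGF9 library alone.

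The spindle checkpoint, which delays anaphase until all kinetochores are attached, had 1 of 9 measured genes 2-fold higher in both libraries, with medians of 0.50 and 0.39. This was Ttk, the kinase MPS1, at 75.1 against 33.1 CPM and 83.0 against 30.1. Bub1b, which codes for BUBR1, was at 223 against 112 and 206 against 86.9, with a log2 ratio in Control just under 1. Mad2l1, a core checkpoint protein, had log2 ratios of 0.25 and 0.36. Of the kinetochore genes, 6 of 20 were 2-fold higher. They included Cenpa, the histone variant of the centromere, at 537 against 106 and 679 against 157, and Nuf2, an outer kinetochore subunit that binds microtubules, at 74.8 against 20.5 and 84.4 against 18.8.

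All 6 genes of the chromosomal passenger complex and shugoshins, which correct wrong attachments and protect cohesin, were 2-fold higher in both libraries, with medians of 1.37 and 1.65. Incenp, the scaffold of the complex, was at 240 against 65.8 CPM in Control and 254 against 59.8 in FGF9. Birc5, which codes for survivin, was at 190 against 68.4 and 211 against 59.3. Aurkb, its kinase, was at 129 against 53.7 and 142 against 51.0.

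Spindle and mitotic kinesin genes had the highest count of the longer lists, with 17 of 24 at least 2-fold higher and medians of 1.28 and 1.66. Nusap1, which bundles spindle microtubules, was at 154 against 15.7 CPM in Control and 156 against 16.2 in FGF9. Tpx2, which activates Aurora A on the spindle, was at 322 against 60.4 and 354 against 53.2. Kif11, the kinesin that separates the spindle poles, was at 182 against 36.4 and 233 against 33.7. Of 10 measured tubulins, 7 were 2-fold higher, with medians of 1.41 and 1.82. Tubb4b, a beta-tubulin, was at 2157 against 762 CPM and 2072 against 468. Tubb5, another beta-tubulin, was at 1012 against 681 and 1303 against 691, with log2 ratios of 0.57 and 0.92. Tuba3a, an alpha-tubulin whose near-identical copy Tuba3b can share its reads, had log2 ratios of 1.44 and 2.26 and is uncertain.

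In the other structural lists, 5 of 23 genes of condensin, cohesin and mitotic chromatin were 2-fold higher, among them Mki67, Top2a and Hmgb2, a DNA-bending protein at 879 against 197 CPM in Control and 1149 against 275 in FGF9. Of 14 measured cytokinesis genes 9 were 2-fold higher, with medians of 1.06 and 1.41. Prc1, which bundles the central spindle, was at 389 against 87.2 and 326 against 50.6. Of 11 centrosome genes only the kinase Nek2 was 2-fold higher, at 74.8 against 24.4 and 76.0 against 24.0. The medians of that list, 0.11 in both libraries, were close to those of all genes.

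**Figure D3:**
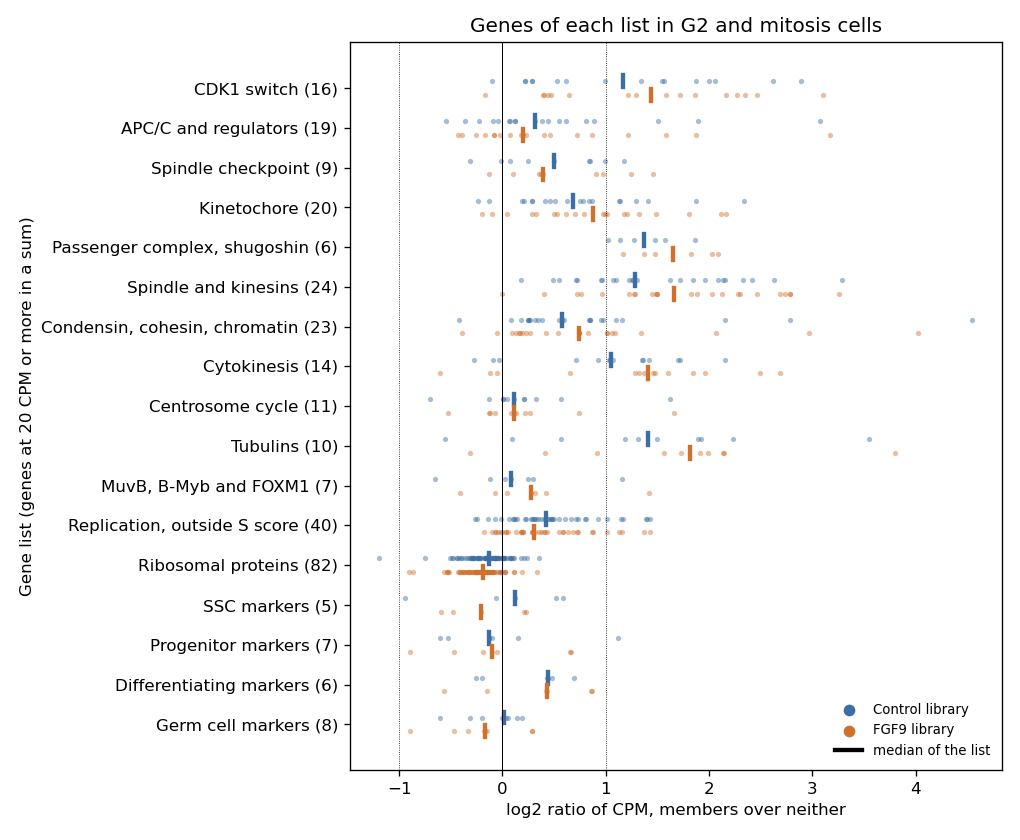
log2 ratio of CPM, G2/M over reference cells (x axis), for each measured gene of 17 lists (y axis, number of genes in brackets), with Control in blue, FGF9 in orange and thick bars for list medians. The medians of the passenger complex, spindle, tubulin, CDK1 and cytokinesis lists lie above 1 in both libraries, those of centrosome genes at 0.11, and those of ribosomal proteins at -0.13 and -0.19.

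Replication genes were higher in cells with a high S score than in G2/M cells. Of 40 measured replication genes outside the S score, 5 were 2-fold higher in G2/M cells and 23 in cells with a high S score alone, where 1.29% of all measured genes were. The list medians in G2/M cells were 0.42 in Control and 0.31 in FGF9, against 1.12 and 1.19 in cells with a high S score. The 5 were Prim1, Gins1, Chek1, Uhrf1 and Gmnn. Prim1, the primase subunit, was at 83.3 against 31.7 CPM and 78.7 against 29.3. Gmnn, which codes for geminin, the inhibitor of a second round of replication, was at 137 against 67.9 and 134 against 61.2. The S score was capped in G2/M cells by the rule, so these values are in part fixed by it. Pclaf, a PCNA partner of the S score, was nevertheless at 23.8 against 3.41 CPM and 56.5 against 11.9.

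Among G1 cyclins, partners and inhibitors, 2 of 11 measured genes were 2-fold higher in both libraries, and both were CDK inhibitors. Cdkn1a, which codes for p21, was at 35.1 against 14.3 CPM in Control and 48.0 against 15.7 in FGF9, and 5 cells held 36.3% and 24.0% of its UMIs in G2/M cells. Cdkn1c, which codes for p57, was at 211 against 70.1 and 237 against 102. Another, Cdkn1b (chr6:134920401-134925513, plus strand), which codes for p27, differed between the libraries. It was at 20.2 against 6.28 CPM in Control, a log2 ratio of 1.69 (1.33 to 2.03), and at 5.48 against 5.45 in FGF9, a log2 ratio of 0.01 (-0.45 to 0.44). Cdkn1b reached 20 CPM in Control G2/M cells alone, so the filter favoured a difference and these values are a description. Its 84 UMIs in Control G2/M cells came from 47 of the 195 cells, and the 5 highest cells held 26.2% of them. Its level in Control followed the score, at 40.4 CPM in the highest of the 4 rank bins, then 24.0, 9.06 and 3.63. After thinning and ranking again, its log2 ratio in Control was 0.81 (-0.10 to 1.61). Of 10 measured p53 targets only Plk2, a kinase, and Cdkn1a were 2-fold higher, while Mdm2, the p53 inhibitor, had log2 ratios of -0.03 and 0.00.

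Spp1 (chr5:104435118-104441050, plus strand), which codes for the secreted protein osteopontin, was among the 12 highest genes outside the scores. It was at 41.6 against 4.54 CPM in Control and 55.2 against 13.6 in FGF9, with log2 ratios of 3.20 and 2.03. The 94 fibroblast barcodes left out of the ranking held it at 2079 CPM in Control and 4194 in FGF9. The 10 fibroblast markers summed to 161 CPM in Control G2/M cells against 134 in reference cells, and to 294 against 171 in FGF9. Of these, 4 reached 20 CPM, with median log2 ratios of G2/M over reference cells of 0.60 in Control and 0.93 in FGF9. Over all genes measured the medians were -0.02 and -0.04. Of the 4, 3 (Vim, S100a6 and Col1a1) had intervals above 0 in both libraries, and the share of all genes with such intervals is not given here. Acta2 and Sox7 were at 0 in Control G2/M cells. Vim was at 10.6 CPM against 3.15 in Control and 31.6 against 16.5 in FGF9, and at 2520 and 4730 in the fibroblast barcodes. Spp1 UMIs were in 74 of 195 and 245 of 472 G2/M cells. The part of fibroblast RNA in the Spp1 ratio was not tested. With Vim plus S100a6 held under 20 UMIs the set of 667 cells was the same. No G2/M cell held over 9 Vim or 8 S100a6 UMIs, so that limit could remove none and does not bear on this.

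The 12 genes lowest in G2/M cells were of mixed function, and all were below 100 CPM in every sum. These calls were not stable: the 26 became 0 with the 1200 highest scores, 0 when each library was ranked alone, 9 after thinning and 60 with the 400 highest. Gsto2, a glutathione transferase, was at 17.8 against 44.1 CPM in Control and 11.1 against 43.4 in FGF9, with log2 ratios of -1.31 and -1.97. Usp11, a deubiquitinase, was at 18.0 against 44.5 and 17.3 against 52.8. Relb, an NF-kappaB subunit, was at 12.8 against 27.6 and 8.85 against 27.3. Jun, an immediate early AP-1 factor, was at 31.8 against 67.5 and 17.6 against 38.7, with log2 ratios of -1.09 and -1.14. Ier5, another immediate early gene, went the other way, at 19.7 against 6.05 and 29.2 against 9.41. Cytosolic ribosomal protein genes, which build the ribosome, were mostly a little lower. None of 82 was 2-fold lower in both libraries, but 60 of 82 had intervals below 0 in both and 7 above 0 in both, with medians of -0.13 and -0.19. The share of all measured genes with such intervals is not given here, and abundant genes have narrow ones. The lower level was not particular to G2/M cells. In cells with a high S score alone the list medians over reference cells were -0.06 in Control and -0.22 in FGF9. Together the ribosomal protein genes took 145862 CPM in Control G2/M cells against 158603 in reference cells, and 145980 against 168041 in FGF9.

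Germ cell state genes differed less. None of the 5 SSC (spermatogonial stem cell), 7 progenitor and 6 differentiating markers measured was 2-fold higher or lower in G2/M cells of both libraries. Many of these genes are markers of the study of the same libraries and are not independent of them, and others, among them Rarg, Sohlh2 and Dnmt3b, were added from general knowledge. The differentiating list had medians of 0.44 and 0.43, but its members differed in direction. Crabp1, a retinoic acid binding protein, was at 151 against 93.3 CPM in Control and 75.3 against 41.6 in FGF9. Sohlh1, a transcription factor of differentiation, was at 188 against 225 and 77.5 against 115, and Uchl1 was also lower. Nanos3, a progenitor RNA-binding protein, was at 96.5 against 147 and 65.7 against 122. Gfra1 (chr19:58235604-58455909, minus strand), which codes for the GDNF co-receptor, was at 23.8 against 15.9 CPM in Control and 45.6 against 63.7 in FGF9. Its log2 ratio was 0.59 (0.27 to 0.89) in Control and -0.48 (-0.63 to -0.34) in FGF9, and the difference between libraries was not tested. Ret, the signalling receptor of the same complex, was at 33.7 against 35.1 and 76.2 against 115, with log2 ratios of -0.06 and -0.59. Epcam, an adhesion protein of undifferentiated spermatogonia, was the single gene of 13 undifferentiated germ cell regulators to be 2-fold higher, at 361 against 116 and 493 against 209.

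None of 14 measured meiotic prophase genes was 2-fold higher or lower in both libraries, and the medians were 0.02 and -0.04. Tex11, a crossover gene, was at 152 against 81.2 CPM and 174 against 80.5. Syce3, a protein of the synaptonemal complex, was at 41.1 against 82.5 and 39.0 against 72.6.

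Along the ranking, Mki67 and Top2a were highest in the top bin and lowest in the bottom bin, though Mki67 did not fall at every step in Control. Mki67 was at 635, 252, 274 and 128 CPM from the highest to the lowest rank bin of Control G2/M cells, and at 787, 496, 345 and 283 in FGF9. In the next 667 ranks among reference cells it was at 37.9 and 124 CPM, and in the remaining reference cells at 11.4 and 21.8. Top2a was at 1182 and 1290 CPM in the highest bin and at 267 and 571 in the lowest. In the lowest bin, Control cells were below FGF9 cells for most of these genes: Ccna2 was at 79.9 CPM in Control and 212 in FGF9, Cdk1 at 42.7 and 107, and the score gene Ccnb1 at 212 and 357. Cenpf, another score gene, went the other way there, at 1877 and 1563 CPM. Gfra1 in FGF9 stayed between 36.7 and 50.6 CPM over the bins of G2/M cells, against 65.0 in the remaining reference cells. Ret in FGF9 stayed between 68.4 and 83.7, against 116.

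**Figure D4:**
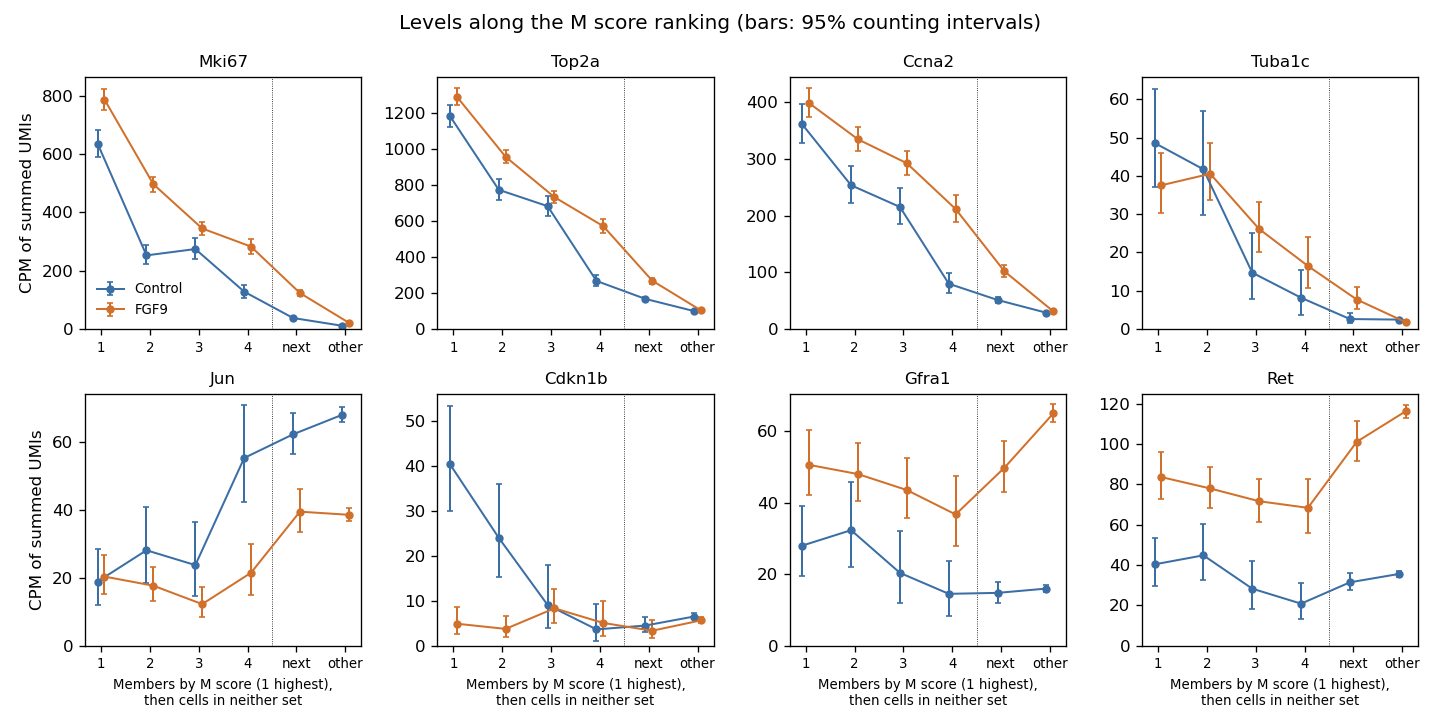
CPM of summed UMIs (y axis) of 8 genes in the 4 rank bins of G2/M cells from the highest M score to the lowest, then in the next 667 ranks and the remaining reference cells (x axis), with 95% counting intervals. Mki67, Top2a, Ccna2 and Tuba1c are lower in the lowest bin than in the highest in both libraries, Cdkn1b is high in the upper 2 bins of Control, and Gfra1 and Ret in FGF9 lie below the remaining reference cells in every bin.

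Within G2/M cells, 90 genes (1.25% of 7224) were at least 2-fold higher in the FGF9 than in the Control library, and 89 (1.23%) lower. The split depended on scaling, with 106 higher and 65 lower by TMM and 109 and 63 by DESeq2 size factors. Among reference cells the counts were 93 (1.29%) and 47 (0.651%). The mitosis lists themselves differed little. The median log2 ratio of FGF9 over Control in G2/M cells was 0.13 for the CDK1 switch, 0.14 for the spindle list and -0.01 for the 7 score genes, which the rule set. Mki67 was 0.56 (0.47 to 0.65) higher in G2/M cells and 1.09 (0.97 to 1.21) higher in reference cells on the log2 scale.

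Genes known to be switched on by FGF and MAPK signalling were higher with FGF9 in G2/M cells too. Of 19 listed, 10 reached 20 CPM, and 9 of the 10 were at least 2-fold higher in G2/M cells and 8 in reference cells. Etv4, Etv5, Dusp6, Ccnd1 and Phlda1 reached 20 CPM in the FGF9 library alone, so the filter favoured a difference and the count is a description. The 9 in G2/M cells were Etv4, Etv5, Dusp5, Dusp6, Spred1, Ier3, Ccnd1, Fos and Phlda1, and Egr1 was at 68.3 and 72.8 CPM. Etv5, an ETS factor of stem cell self-renewal, was at 0.962 CPM in Control G2/M cells (4 UMIs in 195 cells) and 33.4 CPM in FGF9 G2/M cells, a log2 ratio of 5.12 (3.75 to 7.002). For its relative Etv4 the values were 0.722 CPM (3 UMIs) and 33.7 CPM, and the log2 ratio was 5.55 (3.99 to 7.83). Dusp6, the phosphatase that shuts off ERK, was at 5.77 and 49.6 CPM, against 5.71 and 52.9 in reference cells. Nefm, a neurofilament subunit, was at 50.8 and 456 CPM in G2/M cells and 16.4 and 145 in reference cells, and so was higher in G2/M cells of both libraries. Of 14 measured glycolysis genes, 6 were at least 2-fold higher with FGF9, both in G2/M and in reference cells. Of all measured genes 1.25% and 1.29% were. The 20 CPM filter, met in any 1 sum, can favour such a difference, so this count is also a description.

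Lowest with FGF9 in G2/M cells was Nkx1-1, a homeobox gene, at 17.1 CPM in Control and 0.738 in FGF9 (7 UMIs in 472 cells). Its log2 ratio was -4.53 (-5.90 to -3.42), against -2.44 (-2.65 to -2.24) in reference cells. Enpep, a membrane peptidase, was at 23.8 and 3.58 CPM. Kit, the receptor of differentiating spermatogonia, was at 17.6 and 4.74 CPM in G2/M cells and 12.8 and 2.67 in reference cells. Uchl1, a deubiquitinase of spermatogonia, was at 1181 and 597 CPM in G2/M cells and 1358 and 664 in reference cells.

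For most genes the ratio of FGF9 over Control was close in the 2 sets of cells. The difference of the log2 ratios, G2/M minus reference, had a median of -0.02 over all 7224 genes and lay between -0.40 and 0.33 for the middle 90% of them. Genes were named for this difference where they had at least 100 UMIs in each of the 4 sums, as 5801 did. Cdkn1b fell short of that, with 84 and 52 UMIs in G2/M cells, and passed the CPM filter through Control G2/M cells alone. Its difference was -1.68 (-2.23 to -1.13). Gfra1 was at -1.07 (-1.40 to -0.74), with log2 ratios of FGF9 over Control of 0.94 in G2/M cells and 2.01 in reference cells. Hist1h2bc, a histone H2B gene, was at -1.23 (-1.60 to -0.87), and its 5 highest cells held 39.3% of its UMIs in Control G2/M cells. Sox3, a progenitor transcription factor, was at 0.79 (0.58 to 1.00), with log2 ratios of FGF9 over Control of -0.87 in G2/M cells and -1.67 in reference cells. Hmmr, a spindle protein, was at 0.70 (0.58 to 0.82), with a level in reference cells of 70.1 CPM in Control and 48.8 in FGF9. Control reference cells also had the higher median M score, 11.2 against 8.64, and the part of this in the differences of the mitosis genes was not tested.

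**Figure D5:**
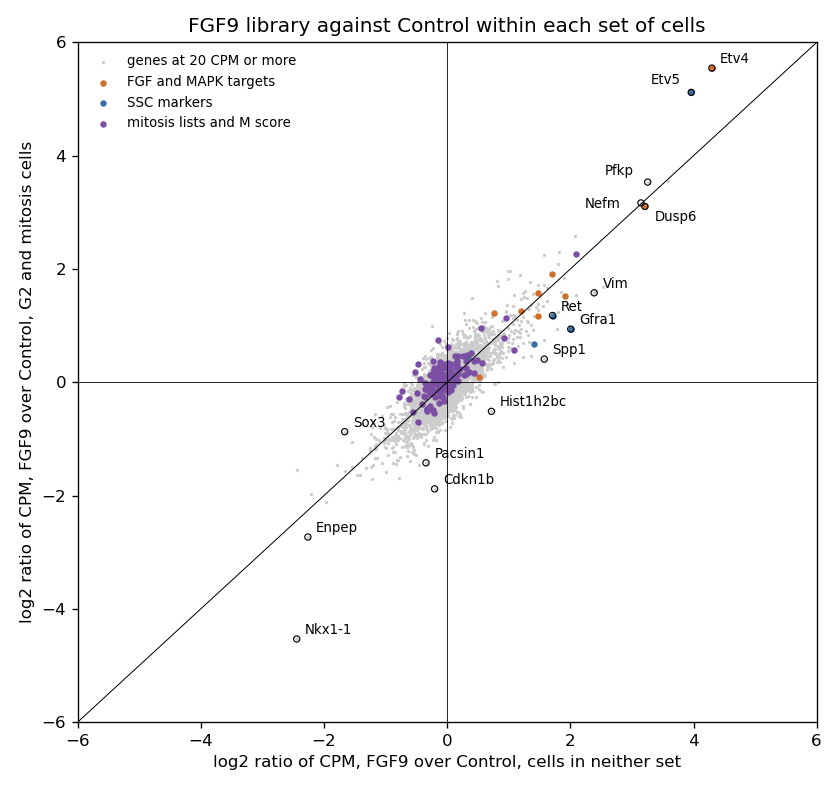
log2 ratio of CPM, FGF9 over Control, in reference cells (x axis, cells in neither set) and in G2/M cells (y axis), for the genes at 20 CPM or more; the diagonal marks equal ratios. Most FGF and MAPK targets lie in the upper right, with Etv4 and Etv5 above the diagonal, most mitosis genes lie around 0 on both axes, and Cdkn1b, Gfra1, Spp1, Hist1h2bc and Nkx1-1 below the diagonal.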

How the data were processed

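Cultured THY-1+ germ cells were encapsulated with the 10x 3′ kit version 3.1. The deposited matrices are raw UMI counts, and the authors produced them with Cell Ranger 3.1.0 on mm10. They hold 1 row for the KIT tag that was kept out of totals. The submitters' processing notes also name Seurat 3.1. Gene UMIs summed to 71481926 for Control and 72669787 for FGF9, over 32285 genes. Barcodes were filtered, scored and ranked as described above, counts were summed by library and set, and CPM was taken over all gene UMIs. The log2 ratios have exact conditional binomial intervals, shares have Clopper-Pearson intervals and levels Poisson ones. They cover counting error only. With 1 library of each treatment no test was run and cells were not used as replicates, so leaving out a replicate was not possible. The cells, lists and rules were chosen with earlier results of these data known. Named genes were the score genes, the 12 highest and 12 lowest ratios, up to 5 of each list with the largest ratio in size, the 10 highest and 10 lowest ratios of FGF9 over Control, the 8 largest differences in each direction and the study's markers; others named with a list were chosen after their values were seen. The ratio and ranking steps were tested on simulated data. Coordinates of promoters are those of RefSeq on GRCm38.p6. Alternatives were other score cut-offs, depth, filters, the TMM scaling of edgeR 4.0.16 and the size factors of DESeq2 1.42.0. Python 3.11.15, numpy 2.4.6, scipy 1.17.1, pandas 2.3.3 and R 4.3.3 were used.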

Additional observations from a re-analysis of the deposited data

Results flagged for a closer look

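Of the 192 named genes, 6 had log2 ratios of G2/M over reference cells in opposite directions in the 2 libraries, with both counting intervals away from 0. The difference between the libraries was not tested, as there was 1 library of each treatment. Gfra1, the GDNF co-receptor, had 0.59 in Control and -0.48 in FGF9. Esrp1, a splicing regulator among the SSC markers, had 0.52 and -0.21. Smarca2, an ATPase of chromatin remodelling, had 0.66 and -0.24. In the other direction, Hes1, a Notch target, had -0.39 in Control and 0.40 in FGF9. Hoxb4 had -0.36 and 0.36, and Hoxb8 had -0.37 and 0.46. The genes with a higher ratio in Control (Gfra1, Esrp1, Smarca2) were all at a higher level in FGF9 than in Control reference cells, at 63.7, 45.2 and 71.6 CPM against 15.9, 17.1 and 27.9.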

How the results depend on the processing

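No paired analysis was possible because the libraries share only 1 replicate number. With 1 library of each treatment no replicate could be left out, and depth limits low genes such as Cdkn1b, which had 84 and 52 UMIs in G2/M cells. Of 96 values of the main results, 51 stayed within the counting interval, or within 1.5 times for a count, and 45 moved. The cause was not tested. The percent of Control cells in the G2/M set, 4.69%, became 2.36% with the 400 highest scores, 8.06% with the 1200 highest, 8.19% with at most 10% mitochondrial UMIs, 7.24% when each library was ranked alone, 2.62% when ranked by mitosis genes outside the score and 5.43% after thinning. For FGF9, 10.4% became 6.63% with the 400 highest scores, 12.5% with at most 10% mitochondrial UMIs, 13.0% with cells high in both scores kept, 8.62% when ranked alone and 7.63% by the other mitosis genes. The FGF9 over Control ratio of these shares ran from 1.31, with the 1200 highest, to 2.91, by the other mitosis genes. It was 1.19 when ranked alone, where equal numbers taken from each library largely set it. The Control UMI ratio, 1.37, became 1.61 with the 400 highest scores and by the other mitosis genes, 1.14 with the 1200 highest, 1.196 at the mitochondrial limit and 1.12 when ranked alone. For FGF9, 1.55 became 1.67 with 400, 1.44 with 1200 and 1.695 by the other mitosis genes. The 127 higher genes became 79 when ranked alone, 202 with a 5 CPM filter, 274 with no filter and 389 at a log2 ratio of 0.5. The 26 lower genes became 60 with 400, 0 with 1200, 16 without high-UMI barcodes, 15 at the mitochondrial limit, 0 when ranked alone, 57 by the other mitosis genes, 17 with DESeq2 size factors, 112 and 200 with the 5 CPM filter and none, 16 with cells weighted equally, 421 at a log2 ratio of 0.5 and 9 after thinning. The 90 genes higher with FGF9 became 178 when ranked alone, 288 and 411 with the 5 CPM filter and none, 397 at 0.5 and 163 after thinning. The 89 lower became 202, 307, 533, 595 and 201 in the same order. A stricter fibroblast limit, which no G2/M cell reached, and TMM scaling kept all counts within 1.5 times. Of 6912 values of named genes 1 reversed: Tspan8 in Control G2/M over reference cells, 1.12, was -0.37 when each library was ranked alone. Counting any change of sign, 292 of the 6912 did, 11 of them among 4332 values of at least 0.5 in size. Of 1260 list medians 99 changed sign, 0 of them among 364 of at least 0.5.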
